A study of Mus musculus with 3 samples.

Results

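The genes described here encode the proteins of the mitochondrial ribosome. They were listed by name: the symbol begins with Mrpl or Mrps and a number, among the probe sets that name 1 gene. Of several probe sets for a gene the brightest on average was read. Earlier results of these data were known when the members were chosen. The rule found 76 genes of 17886 on the array, 47 named Mrpl for the large subunit and 29 named Mrps for the small subunit, with 150 probe sets of 38533. Expression was measured in dendritic cells (DCs) of wild-type mice, cultured from marrow for 5 days under the cytokine GM-CSF (granulocyte-macrophage colony-stimulating factor). The cells were then separated in a flow sorter by PDL2, the product of Pdcd1lg2, which restrains T cells through PD-1. The 3 groups were untreated PDL2-negative cells, PDL2-negative cells stimulated after the sort with lipopolysaccharide (LPS, a component of bacterial walls that is sensed by TLR4) at 100 ng/ml, and untreated PDL2-positive cells. The age and number of mice, any pooling and the duration of LPS treatment are not given in the sources used here.

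Each group had 1 array. Differences therefore have no replicate check and no test, and the number of arrays limits the precision. Genes are described by size: a gene is called higher or lower where its quantile-normalized log2 signals on 2 arrays differ by at least 2-fold, with 1.5-fold as a second size rule. A difference is always between signals of the same probe set, since probe sets of different genes cannot be set against each other on this scale. All 76 genes were above the floor of 5.58, the median of all normalized log2 values, on all 3 arrays.

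Mitochondrial ribosomes translate the few messenger RNAs of the mitochondrial genome, all of which encode membrane subunits of the respiratory chain and ATP synthase. Their RNA comes from mitochondrial DNA, but every one of their proteins is made in the cytosol from nuclear genes and imported. Many of these proteins have a bacterial relative, while others are found only in mitochondria, where they wrap an RNA core that is shorter than that of bacteria. In DCs and macrophages, strong Toll-like receptor stimulation is known to lower mitochondrial respiration and raise glycolysis.

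The mitochondrial ribosomal protein genes were lower on the LPS array than on the untreated PDL2-negative array as a group, by small amounts. Their median log2 difference was -0.43, against 0.02 over the 11000 genes above the floor. Of the 76 members, 62 (81.58%) were below 0, against 48.2% of all genes above the floor. In PDL2-positive cells the group lay closer to the untreated PDL2-negative level, with a median of -0.21 and genes on both sides of 0. Few members stood far from the rest: Mrpl41 and Mrpl42 were about 5.06-fold lower after LPS, and Mrpl13 was 2.93-fold higher in PDL2-positive cells.

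Promoter sequences are shown first for members that differed by at least 2-fold in some comparison. The genes of the mitochondrial ribosome are scattered over the chromosomes, and the promoters of some of them hold the same short motifs. The RefSeq promoter windows of build GRCm38.p6, from 250 bases before to 50 bases after a start site, were matched by symbol for 67 members with 73 windows. Of the 19 members past 2-fold in some comparison, 3 were not matched, and 4 had an NRF-1 or ETS motif entirely within the stretch before the start that is printed here. NRF-1 is a transcription factor known for nuclear genes of the respiratory chain, and ETS factors such as GABP (also called NRF-2) bind the core GGAA. Capitals mark the NRF-1 letters GCGCANGCG or the ETS letters CCGGAAGT on either strand, and each stretch ends at the base before the start site. The stretches of Mrpl41 and Mrpl42, the members with the largest difference, are printed beside them and hold neither motif.
Mrpl12, chr11:120484517-120484636, plus strand: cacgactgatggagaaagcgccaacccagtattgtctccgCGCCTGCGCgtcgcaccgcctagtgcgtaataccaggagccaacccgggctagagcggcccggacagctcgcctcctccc
Mrps26, chr2:130563637-130563756, plus strand: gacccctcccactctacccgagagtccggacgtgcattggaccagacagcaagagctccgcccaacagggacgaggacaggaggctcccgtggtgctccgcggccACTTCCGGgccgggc
Mrpl43, chr19:45006443-45006557, minus strand: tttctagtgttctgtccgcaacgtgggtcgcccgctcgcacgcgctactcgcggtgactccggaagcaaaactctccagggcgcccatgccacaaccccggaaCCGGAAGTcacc
Mrpl45, chr11:97315596-97315715, plus strand: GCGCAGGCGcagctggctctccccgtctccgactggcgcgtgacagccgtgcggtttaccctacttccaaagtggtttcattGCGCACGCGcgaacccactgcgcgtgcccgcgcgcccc
Mrpl41, chr2:24975099-24975218, minus strand: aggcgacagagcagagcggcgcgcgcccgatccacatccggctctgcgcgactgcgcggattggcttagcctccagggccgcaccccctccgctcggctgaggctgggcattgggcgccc
Mrpl42, chr10:95501950-95502069, minus strand: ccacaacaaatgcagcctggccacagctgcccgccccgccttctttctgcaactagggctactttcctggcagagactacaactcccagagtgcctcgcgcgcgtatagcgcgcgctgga

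In these stretches the NRF-1 match of Mrpl12 begins 80 bases before the start, and those of Mrpl45 begin 120 and 38 bases before it. The ETS match begins 15 bases before the start in Mrps26 and 12 bases before it in Mrpl43. The NRF-1 letters were found in 20.55% of the members' windows, against 6.25% of all 32851 windows and 8.58% of the 21262 windows of protein-coding genes. The ETS letters were found in 16.44%, against 3.89% of all windows and 5.15% of those of protein-coding genes. The YY1 letters AAGATGGC, was found in 16.44%, against 2.75% and 3.05%. YY1 is a zinc finger factor whose motif lies near the start site of many housekeeping genes. At least 1 of the 3 motifs was in the windows of 36 members, or 49.32% of the windows, against 11.83% of all windows and 15.33% of those of protein-coding genes. No 2 of the 3 overlapped in a member's window. Windows of the nuclear respiratory chain genes held at least 1 of the 3 in 47.76% of cases and those of cytosolic ribosomal protein genes in 35.82%. The GC-box letters GGGCGG of Sp1 were more common everywhere, in 53.42% of the members' windows, 35.66% of all windows and 46.2% of those of protein-coding genes. The members' windows had a median GC content of 58.67%, against 56.33% for protein-coding genes and 52.67% for all windows, and the motif shares are not adjusted for this.

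The YY1 letters differed from the others in place. In 8 of the 12 member windows that held them they began after the start site on the transcript's own strand, as in Mrpl35, Mrpl42 and Mrps24, where they begin 24, 28 and 37 bases after it. Over all 903 windows with YY1 letters the share was 31.45%. The members with at least 1 of the 3 motifs had a median difference of -0.38 after LPS (36 genes), and the matched members with none had -0.63 (31 genes). In PDL2-positive against PDL2-negative cells these medians were -0.22 and -0.25. Both sets covered nearly the whole range of the members, from -2.34 to 0.32 with a motif and from -2.34 to 0.12 without one after LPS. A match is a description of letters, and the binding of a factor was not measured.

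Many members also had another gene starting close by on the opposite strand. Of the 67 matched members, 23 (34.33%) had the start site of a gene on the opposite strand within 1000 bases upstream, against 8.48% of 17491 protein-coding genes. Mrpl46 and Mrps11 form such a pair, with start sites 42 bases apart, and differed by 0.12 and -0.51 on the log2 scale after LPS. Mrps12 faces Sars2, the mitochondrial seryl-tRNA synthetase gene, and Mrpl43 faces Twnk, the helicase gene of mitochondrial DNA. After LPS, Mrps12 differed by -0.44 and Sars2 by 0.15, and Mrpl43 by -0.84 and Twnk by -0.31. Mrpl47 faces the respiratory chain gene Ndufb5, and they differed by -0.49 and -0.97. Mrpl41 faces Pnpla7, a lysophospholipase gene, at the longer distance of 935 bases, and they differed by -2.34 and -2.30. In PDL2-positive against PDL2-negative cells Mrpl41 differed by -0.70 and Pnpla7 by -2.05. Facing genes thus had like values in some pairs and unlike values in others.

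The first comparison is between LPS-treated and untreated PDL2-negative cells. The members' log2 signals had a median of 9.44 without LPS (range 6.90 to 10.88) and 8.71 with it (6.71 to 11.16). No member was higher by 2-fold, where 9.17% of all genes above the floor were, and 11 members (14.5%) were lower, close to the 13.8% of all genes. At 1.5-fold the members stood further from the other genes: 0 were higher, against 15.1% of all genes, and 32 (42.1%) were lower, against 24.6%. Among the 7026 genes within the members' own range of mean signal, 27.68% were lower by 1.5-fold and the median difference was -0.04.

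**Figure D1:**
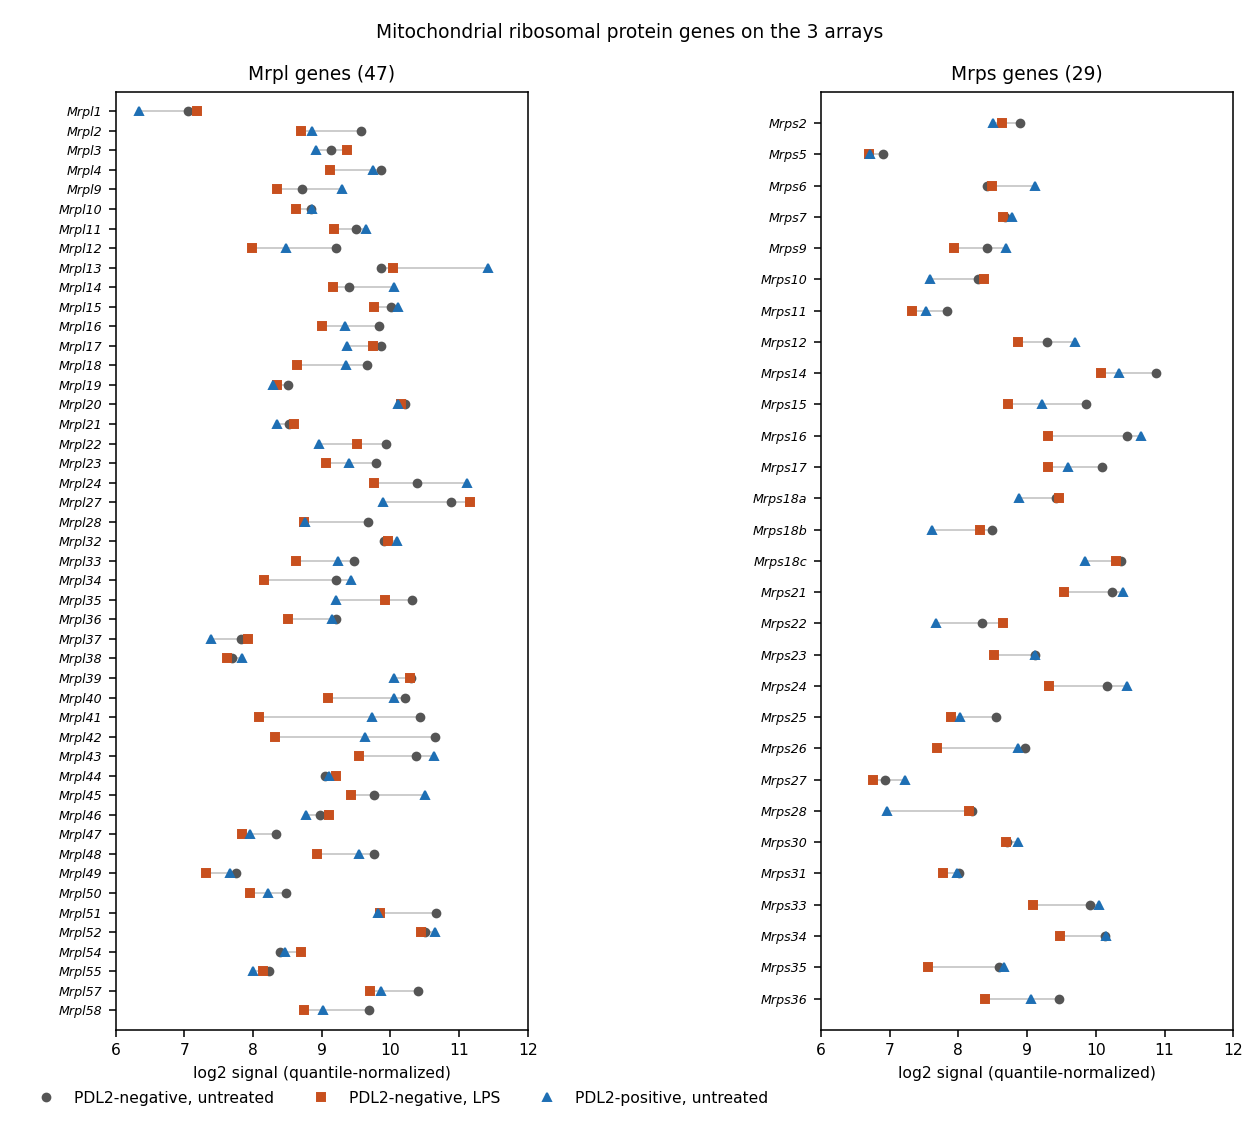
Quantile-normalized log2 signal of each of the 76 genes on the 3 arrays, with 1 array per group and therefore no error bar (grey circles, PDL2-negative untreated; orange squares, PDL2-negative with LPS; blue triangles, PDL2-positive untreated; the grey line joins the points of a gene). The LPS square is the lowest of the 3 in 50 genes, and Mrpl41, Mrpl42 and Mrpl13 have the widest spans; positions of different genes on the axis cannot be ranked.

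Mrpl41 and Mrpl42, mitochondria-specific proteins of the large subunit, had the largest differences. Mrpl41 had log2 signals of 10.43 without treatment and 8.09 with LPS among PDL2-negative cells, and 9.73 in PDL2-positive cells. Mrpl42 had 10.65, 8.32 and 9.63 in the same order. In both genes the LPS array was the lowest and the PDL2-positive array was in between, and each was lower by 2.34 after LPS. A second probe set of Mrpl41 gave -2.41, while the second probe set of Mrpl42 lay below the floor on all arrays.

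The other large-subunit members lower by 2-fold after LPS included proteins of named places in the particle. Mrpl12, a relative of bacterial L7/L12 that forms the mobile stalk where translation factors dock, had 9.20 untreated, 7.99 after LPS and 8.49 in PDL2-positive cells. Mrpl40 and Mrpl18, of the central protuberance that faces the small subunit, had 10.22, 9.09 and 10.05, and 9.66, 8.64 and 9.36. Mrpl34, a relative of bacterial L34, had 9.20, 8.16 and 9.43. The LPS array was the lowest of the 3 in each of them, and for Mrpl34 the PDL2-positive array was the highest. The difference of Mrpl34, -1.04, rests on 1 probe set: the other one, nearer the floor, gave 0.07.

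In the small subunit, Mrps26, a mitochondria-specific protein, was lower by 1.28 after LPS, from 8.97 to 7.69, and was 8.86 in PDL2-positive cells. Mrps16, a relative of bacterial S16, had 10.45, 9.31 and 10.66. Mrps15, a relative of bacterial S15, had 9.86, 8.72 and 9.22, and its 3 probe sets ranged from -1.58 to 0.07 in their LPS difference. The value of 0.07 is from a probe set near the floor (5.81 untreated, 5.88 with LPS), and the brightest probe set gave -1.14. Mrps35 had 8.59, 7.56 and 8.66. The untreated and PDL2-positive arrays lay within 0.21 of each other for Mrps26, Mrps16 and Mrps35, and the LPS array lay at least 1.03 below both. Mrps36 had 9.46, 8.39 and 9.05. Its symbol fits the rule, but its product is now known as a subunit of the 2-oxoglutarate dehydrogenase complex, an enzyme of the citric acid cycle. Without it, the medians of the remaining 75 members were -0.42 after LPS and -0.21 in PDL2-positive cells.

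At the other end, no member was higher by 1.5-fold after LPS in its brightest probe set. The highest were Mrps22, a mitochondria-specific protein of the small subunit (0.32), and Mrpl54 (0.31). Mrpl27, a relative of the bacterial protein that reaches towards the peptidyl transferase center, followed with 0.28, and Mrpl3 with 0.23. These are of the size of the technical spread: over 26 members with at least 2 probe sets above the floor, the gap between the LPS differences of the brightest and the second probe set had a robust SD of 0.31. In 16 of these 26 members all probe sets above the floor had the same sign. Mrpl51 differed by -0.81 in its brightest probe set and by 0.44 in another that lies nearer the floor (5.98 untreated, 6.42 with LPS). The 3 probe sets of Mrpl28 ranged from -1.20 to -0.09. The dimmer probe set of Mrpl27, above the floor on all arrays, gave 0.88, which is past 1.5-fold. A second probe set of Mrpl3 gave 0.29.

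**Figure D2:**
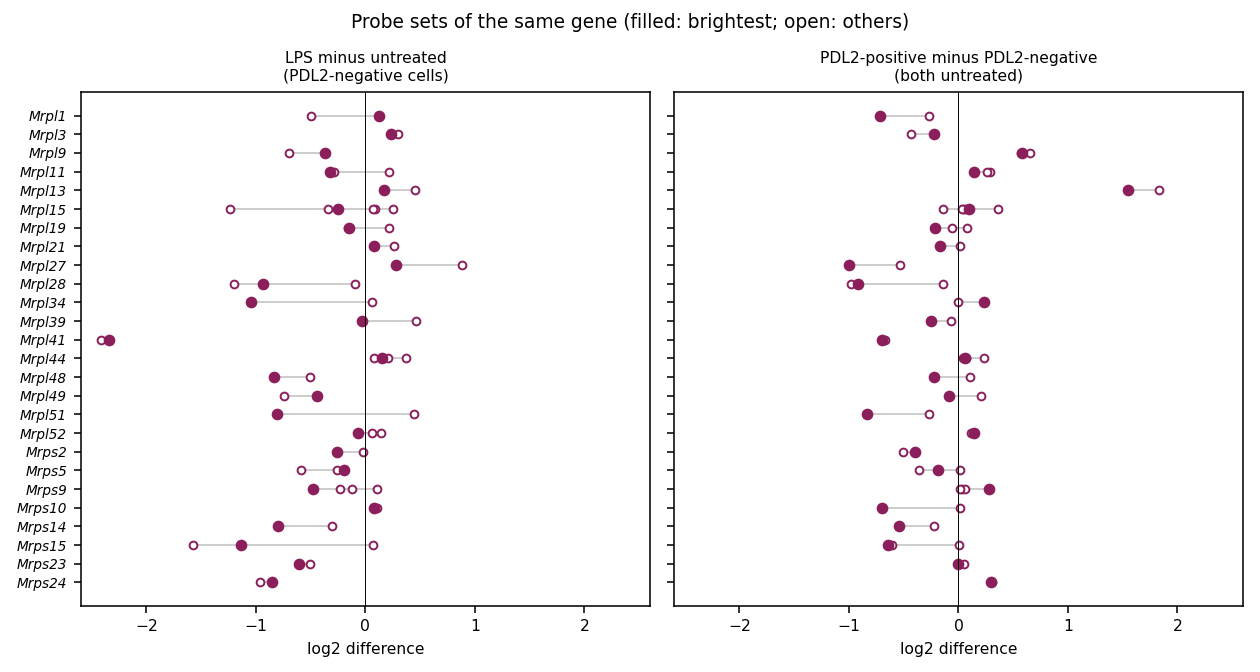
Log2 difference of every probe set above the floor on all arrays for the 26 members that have at least 2 such probe sets, after LPS (left) and in PDL2-positive against PDL2-negative cells (right); filled points are the brightest probe set, open points the others, and lines join probe sets of 1 gene. The probe sets of Mrpl41 and Mrpl13 lie close together, and those of Mrpl34, Mrpl51 and Mrps15 lie on both sides of 0 on the left. For these last genes the values above 0 are from dimmer probe sets nearer the floor.

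Members with a dimmer second probe set to compare had smaller differences in it. Over the 30 members with a second probe set above the floor, the median LPS difference was -0.29 in the brightest and -0.13 in the second, with 22 and 17 of them below 0. The 36 members with a single probe set on the array had a median of -0.43. The size of the group's shift is therefore read mainly from probe sets that have no second reading.

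By place in the ribosome, the small-subunit members had a median LPS difference of -0.49 (26 genes) and the large-subunit members -0.36 (49 genes), counting Mrps18a and Mrps30 with the large subunit, in which their proteins lie. The 10 mitochondria-specific proteins of the small subunit had the lowest median, -0.63, with 9 of them below 0. The 16 small-subunit proteins with a bacterial relative had -0.46, the 29 such proteins of the large subunit -0.36 and the 20 mitochondria-specific ones -0.39. Mrps18b and Mrps18a are counted as mitochondria-specific in the small and the large subunit, although both are relatives of bacterial S18. Proteins around the exit of the peptide tunnel, where new chains leave towards the inner membrane, had a median of -0.37 (8 genes), from -0.74 for Mrpl23 to 0.15 for Mrpl44. The central protuberance had -0.09 (7 genes), the median of values that ran from -1.13 for Mrpl40 to 0.28 for Mrpl27, and the stalk had -0.27 (4 genes), from -1.21 for Mrpl12 to 0.31 for Mrpl54. Differences within each of these places were wider than those between their medians.

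**Figure D3:**
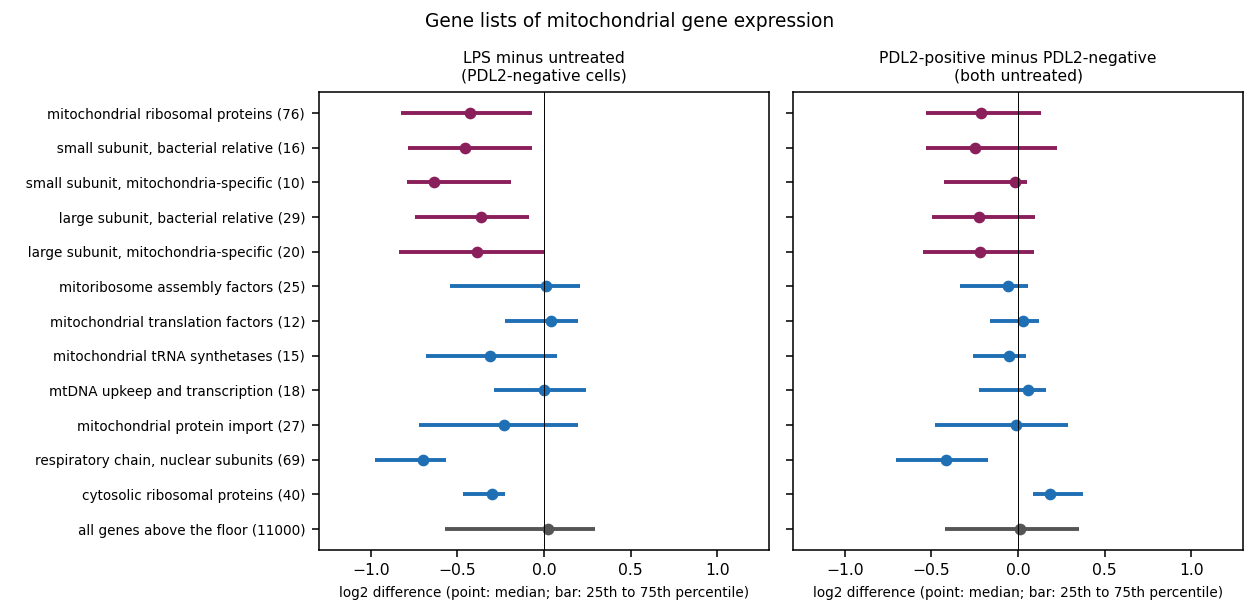
Median log2 difference (point) with the 25th and 75th percentiles over genes (bar) of the members, their 4 main structural groups and 7 other gene lists, after LPS (left) and in PDL2-positive against PDL2-negative cells (right); bars show spread between genes and are no error of the median, and the number of genes is in parentheses. The members lie at -0.43 and -0.21. Of the lists drawn, the respiratory chain genes have the lowest median in both panels (-0.70 and -0.41), and all genes above the floor lie near 0. Both panels subtract the same untreated PDL2-negative array.

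The second comparison is between PDL2-positive and PDL2-negative untreated cells. It subtracts the same untreated PDL2-negative array as the first, so the values of these comparisons are not independent. In PDL2-positive cells the members' log2 signals had a median of 9.13 (range 6.34 to 11.42). The median difference was -0.21, against 0.01 over 10926 genes, and 49 of the 76 members (64.47%) were below 0, against 46.65% of all genes. By 2-fold, 1 member was higher and 3 were lower, fewer than the 10.1% and 13% of all genes. At 1.5-fold, 5 members (6.58%) were higher, against 17.7% of all genes, and 16 (21.1%) were lower, against 20.4%. The share of members lower by 1.5-fold was thus near the background, and the share of members higher was below it.

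Mrpl13, a relative of bacterial L13, which binds early in assembly of the large subunit, was the only member higher by 2-fold. Its log2 signals were 9.87 in untreated PDL2-negative cells, 10.04 with LPS and 11.42 in PDL2-positive cells. The PDL2-positive array stood apart and the others lay close together, and a second probe set above the floor gave a difference of 1.83, against 1.55 in the brightest. The next highest members were Mrpl45 (0.74), an anchor of the ribosome at the inner membrane, Mrpl24 (0.72), at the tunnel exit, Mrps6 (0.70), Mrpl14 (0.66) and Mrpl9 (0.58). Mrpl45 had 9.76, 9.43 and 10.50 on the untreated PDL2-negative, LPS and PDL2-positive arrays, and Mrpl24 had 10.39, 9.77 and 11.11. The PDL2-positive array was the highest and the LPS array the lowest for both.

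Mrps28, Mrpl35 and Mrpl42 were lower by 2-fold in PDL2-positive cells. Mrps28 had 8.19 in untreated PDL2-negative cells, 8.16 with LPS and 6.95 in PDL2-positive cells. Mrpl35 had 10.32, 9.92 and 9.21. For both, the LPS array lay nearer to the untreated PDL2-negative array than to the PDL2-positive one. Mrpl42 was lower by 1.02, and it was lower by more after LPS. Mrpl27, with 10.88, 11.16 and 9.89, lay just outside the size rule at 1.99-fold lower, and Mrpl42 lay just inside it at 2.03-fold. Mrpl22 at the tunnel exit (-0.97), Mrpl28 (-0.91), Mrps18b (-0.87) and Mrpl51 (-0.84) followed.

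The 3 relatives of bacterial S18 had like values. Mammals have 3 such proteins, of which Mrps18c occupies the S18 site of the small subunit, Mrps18b lies elsewhere in the small subunit and Mrps18a lies in the large subunit. Mrps18a had 9.42 in untreated PDL2-negative cells, 9.47 with LPS and 8.88 in PDL2-positive cells. Mrps18b had 8.48, 8.31 and 7.61, and Mrps18c had 10.37, 10.29 and 9.84. All 3 were lowest in PDL2-positive cells, with differences of -0.53 to -0.87 from untreated PDL2-negative cells, and after LPS they lay within 0.18 of the untreated level. Each was read by 1 probe set.

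By subunit, the medians in PDL2-positive against PDL2-negative cells were -0.07 for the small (26 genes) and -0.22 for the large (49 genes). Tunnel exit proteins ran from -0.97 for Mrpl22 to 0.74 for Mrpl45, with a median of -0.32. Proteins of the stalk had 0.05, and those of the central protuberance had -0.22, with 6 of 7 below 0. The robust SD of the gap between the 2 brightest probe sets was 0.24 over 27 members, a measure of the error of single genes and not of group medians.

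**Figure D4:**
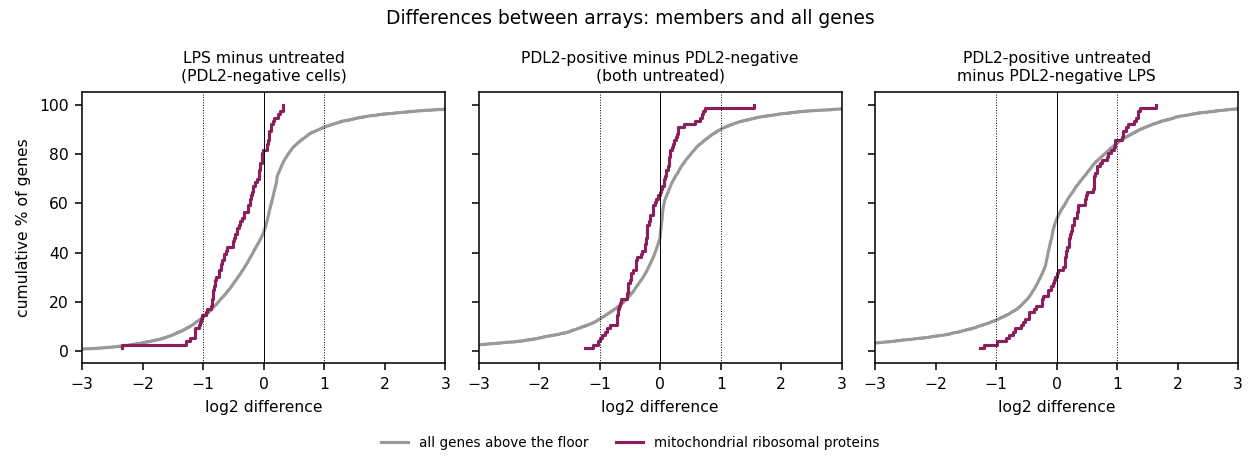
Cumulative percentage of genes by log2 difference in the 3 comparisons, for the 76 members (purple) and all genes above the floor (grey); dotted lines mark 2-fold, and values beyond the axis are not drawn. After LPS the members' curve lies to the left of the grey one through most of its range and ends at 0.32, while in the other panels it crosses 0 at 64.47% and 30.26% of members.

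The remaining comparison, of PDL2-positive cells with LPS-treated PDL2-negative ones, shares an array with each of the others, so its values are set beside theirs and add no independent evidence. The first and second comparisons also share an array, as given above. In PDL2-positive against LPS-treated cells the median was 0.26, against -0.05 over 11042 genes. Above 0 were 53 of 76 members and 5118 of the 11042 genes. By 2-fold, 11 members (14.5%) were higher, against 15.6% of all genes, and 2 were lower, against 12.6%. At 1.5-fold, 27 (35.5%) were higher, against 25.1%, and 8 (10.5%) were lower, against 18.5%. The higher members were Mrpl41 (1.64), Mrpl13 (1.38), Mrps16 (1.35), Mrpl24 (1.34), Mrpl42 (1.32), Mrpl34 (1.28), Mrps26 (1.17), Mrps24 (1.14), Mrpl43 (1.10), Mrps35 (1.10) and Mrpl45 (1.07). For Mrpl13 the PDL2-positive array was high, and for Mrpl41 and Mrpl42 the LPS array was low. Mrps24 had 10.16, 9.32 and 10.46 and Mrpl43 had 10.38, 9.54 and 10.64 on the untreated PDL2-negative, LPS and PDL2-positive arrays. The members lower by 2-fold were Mrpl27 (-1.27) and Mrps28 (-1.21), for which the PDL2-positive array was the lowest of the 3.

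Over the 3 arrays, a member's lowest signal was on the LPS array in 50 genes (65.79%), on the PDL2-positive array in 21 and on the PDL2-negative untreated array in 5. For the 9850 genes above the floor on all arrays, the LPS array held the lowest signal in 34.97%. The highest signal was on the PDL2-negative untreated array for 40 members (52.63%), against 28.19% of all genes. The span from the lowest to the highest array had a median of 0.77 for members and 0.74 for all genes, but spans of at least 1 were less frequent among members, in 19 (25%) against 38.54%. Mrpl20 had the smallest span, with log2 signals of 10.22, 10.15 and 10.10, and Mrpl41 had the largest.

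Other gene lists of mitochondrial gene expression, chosen by function, were read in the same way. Of 4 mitochondrial ribosomal proteins that carry other names, Chchd1 differed by -0.62, Dap3 by -0.47, Gadd45gip1 by -0.25 and Ptcd3 by 0.08 after LPS, and by between -0.18 and 0.23 in PDL2-positive against PDL2-negative cells. Assembly factors of the mitochondrial ribosome had a median of 0.01 after LPS (25 genes), with 4 lower by 2-fold and 0 higher. Rbfa, which binds the small-subunit RNA during maturation, differed by -2.07, and C1qbp, a matrix protein that binds RNA, by -1.63, while Tfb1m was the highest at 0.48. Nsun4, which methylates the small-subunit RNA and takes part in joining the subunits, stood at 7.30, 7.41 and 9.74 on the untreated PDL2-negative, LPS and PDL2-positive arrays, a difference of 2.44 in PDL2-positive cells, where the list's median was -0.06 and Noa1 was the lowest at -0.91. Mitochondrial translation factors had medians of 0.04 and 0.03 (12 genes), with 0 past 2-fold in either of these comparisons. Lrpprc, which stabilizes mitochondrial messenger RNAs, was the lowest of that list, at -0.77 after LPS and -0.86 in PDL2-positive cells.

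Mitochondrial tRNA synthetases had medians of -0.31 and -0.05 (15 genes). Fars2 differed by -1.21 and Cars2 by -1.20 after LPS, and Ears2, which charges the glutamate tRNA, had 5.83, 5.83 and 9.27 on the untreated PDL2-negative, LPS and PDL2-positive arrays, with the first values close to the floor. Genes of mitochondrial DNA upkeep and transcription had medians of 0.00 and 0.06 (18 genes). Among them Pnpt1, an RNA-degrading enzyme of mitochondria that is also known as an interferon-stimulated gene, had 7.88, 10.21 and 6.49, highest after LPS and lowest in PDL2-positive cells. Tfb2m, needed for transcription of mitochondrial DNA, differed by -1.37 after LPS and 0.16 in PDL2-positive cells.

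Genes of mitochondrial protein import, the route by which ribosomal proteins reach the matrix, had medians of -0.23 and -0.01 (27 genes), and the lowest in both comparisons, Timm8a1, had 8.99, 7.39 and 6.90. The highest in both, Tomm70a, differed by 0.71 and 1.15. The list of nuclear genes of the respiratory chain and ATP synthase takes in complexes with some subunits made by the mitochondrial ribosome, and also complex II (Sdha, Sdhb, Sdhc and Sdhd), which has none. The median of this list was -0.70 after LPS, with 68 of 69 genes below 0, 13 lower by 2-fold and 0 higher, and -0.41 in PDL2-positive cells, with 5 lower and 0 higher. Of all genes, 13.8% and 13% were lower by 2-fold in these comparisons. Cytosolic ribosomal proteins had medians of -0.30 after LPS and 0.19 in PDL2-positive cells (40 genes), with 39 of 40 below 0 in the first and 35 of 40 above 0 in the second. The median of the members was below 0 in both comparisons, which share the untreated PDL2-negative array. Regulators of mitochondrial biogenesis had medians of 0.40 and -0.12 (11 genes): Ppargc1b, a coactivator of respiratory genes, had 8.85 untreated and 5.59 with LPS in PDL2-negative cells, and lay at the floor in PDL2-positive cells. Gabpb1 and Gabpa encode subunits of GABP: Gabpb1 had 6.63, 8.68 and 7.73, while Gabpa had 8.18, 7.74 and 7.82. Myc had 7.46, 6.53 and 5.75. Of the other genes whose factors' motifs were searched above, Nrf1, which encodes NRF-1, had 6.87, 7.47 and 6.99, Yy1 had 10.64, 10.62 and 11.04, and Sp1 had 10.75, 10.08 and 11.31.

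Markers of cell types and of division differed between the arrays and stand beside these results. Pdcd1lg2, the gene of the sorted protein, had 8.40 on the untreated PDL2-negative array, 9.44 with LPS and 11.73 in PDL2-positive cells. The DC markers Cd74 and H2-Ab1 were high on every array (13.84 to 14.33), and Itgax, which encodes CD11c, had 11.48, 10.80 and 9.81. Of the 12 DC markers, 5 were higher by 2-fold in PDL2-positive than in untreated PDL2-negative cells: Irf4 (3.38), Batf3 (2.71), Zbtb46 (2.37), Dpp4 (2.25) and Flt3 (1.89). Itgax was the only one lower by 2-fold there. Summed signals, as the log2 of the linear sum, are dominated by the brightest genes of a list. The sum of the 12 DC markers lay between 16.40 and 16.42 on the 3 arrays and was carried by Cd74, H2-Aa, H2-Ab1 and H2-Eb1, so it does not show these differences. The 9 macrophage markers summed to 16.12, 15.68 and 11.88 on the untreated PDL2-negative, LPS and PDL2-positive arrays, all 9 above the floor on all arrays and all 9 lower by 2-fold in PDL2-positive cells, with Adgre1 at 12.01, 11.83 and 8.06 and Csf1r at 14.08, 13.58 and 10.72. The 4 monocyte markers summed to 12.67, 11.96 and 10.56. The 10 markers of neutrophils and their precursors summed to 14.27, 13.21 and 14.20, lowest after LPS, and Mpo had 8.14, 6.42 and 7.68. After LPS 8 of the 10 were below 0, while Csf3r (0.46) and Cxcr2 (0.18) were above it. Csf3r differed by -2.63 in PDL2-positive from untreated PDL2-negative cells, the only one of the 10 past 2-fold there. Of 6 lymphocyte and natural killer cell markers 5 were at the floor on all arrays, and of 4 erythroid markers 3 were. The 7 markers of mast cells, basophils and eosinophils summed to 9.16, 9.32 and 10.49. Of these, Kit, which is also expressed by progenitors, had 6.26, 6.97 and 9.78, while Cpa3, Mcpt8 and Prg2 differed by 0.24, 0.30 and -0.09 in PDL2-positive from untreated PDL2-negative cells, and Epx, Fcer1a and Ms4a2 were at the floor on all arrays. The 25 cell cycle genes summed to 14.12, 13.42 and 12.90. Over the 23 that entered the comparisons, the median differences were -1.55 after LPS and -1.53 in PDL2-positive cells. After LPS 1 of the 23 was above 0, Ccne1 (0.60). In PDL2-positive cells 3 were above 0, the replication genes Mcm6 (0.79), Mcm7 (0.35) and Mcm2 (0.15), and 20 were below it. The part of these cell types and of division in the members' differences was not tested. In RNA from a sorted population, fewer cells of a type and less RNA per cell cannot be told apart.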

How the data were processed

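Total RNA of 3 sorted cell samples was hybridized to 3 Affymetrix mouse arrays, 1 per group, per the labels' protocols and the probe annotation. The deposited values are the authors' log2 signals, 1 per probe set and array; that they are log2 was read from their range. How the authors corrected background, normalized and summarised them was not given in the sources used here.

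Upper quartiles of the deposited log2 values were 7.90, 7.68 and 7.84. Quantile normalization was applied to 38533 probe sets, leaving out 13 controls. Of these probe sets 33974 name 1 gene, 449 name several and were used for none, and 4110 are unnamed in the annotation. Updating symbols through the gene number in a RefSeq table changed 0 members. The 2 probe sets of Mrpl30 also name another gene, so it is not among the members. Values under the floor, the median of all normalized values, were raised to it, and a gene entered a comparison if above the floor on at least 1 of its 2 arrays. With 1 array per group no p-value or standard error is given. The only error measure is the robust SD of the gap between the differences of a gene's 2 brightest probe sets, which says nothing of cultures or mice. The procedure was checked on simulated arrays with shifts larger than the members' median differences. That check does not cover shifts as small as those medians, or the error between cultures or mice.

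Named members are the 10 highest and 10 lowest in each comparison, those past 2-fold in any, the S18 family and the extremes of each structural group; of the other mitochondrial lists the rule takes the 2 highest and 2 lowest, of which some are named. Nrf1, Gabpa, Yy1 and Sp1 are named for the motifs searched. DC, neutrophil and mast cell markers outside the rule, cell cycle genes, facing gene pairs and members that show probe set disagreement or the narrowest span were named after their values were seen. The members and the lists were chosen with earlier results of these data known. Promoter windows came from RefSeq (GRCm38.p6); protein sequences were not used here. Alternatives changed the normalization, the floor, the probe set rule, the size rule and the symbols. Python 3.11.15 was used with numpy 2.4.6, pandas 2.3.3, scipy 1.17.1 and matplotlib 3.10.9.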

Additional observations from a re-analysis of the deposited data

How the results depend on the processing

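No paired analysis was possible because each group had 1 array and the labels carry no replicate numbers. The members' median kept its sign in all 3 comparisons under the 7 alternatives of normalization, floor, probe set and symbols. Leaving out the floor could not change it, since all 76 members were above the floor on all 3 arrays. Updating the symbols could not either, since 0 members changed. With the second probe set the members' median was close to 0 in PDL2-positive against PDL2-negative cells. After LPS it ran from -0.58 with the deposited values, where the median of all genes moved from 0.02 to -0.09, to -0.13 with the second probe set (30 members). In PDL2-positive against PDL2-negative cells it ran from -0.25 to -0.01, the latter with the second probe set (14 of 28 members below 0). In PDL2-positive against LPS-treated cells it ran from 0.07 to 0.38.

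Counts of members moved with the size rule by construction. The shares of all genes at 1.5-fold are given above. For the other settings of this paragraph no such shares are given, so those counts cannot be set against the background. At 1.5-fold, 32 were lower after LPS, 5 higher and 16 lower in PDL2-positive against PDL2-negative cells, and 27 higher and 8 lower in PDL2-positive against LPS-treated cells. At 3-fold these counts were 2, 0 and 0, and 1 and 0. With a floor at the 75th percentile 1 member was lower in the last comparison, and with the mean of all probe sets 1 was lower in PDL2-positive against PDL2-negative cells. With the second probe set, over fewer members, 2 were lower after LPS, 0 were lower in PDL2-positive against PDL2-negative cells, and 4 were higher and 1 lower against LPS-treated cells. Mrpl34 changed sign with its second probe set, to 0.065 after LPS and -0.065 in PDL2-positive against LPS-treated cells; that probe set lies near the floor, and the cause was not tested.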
